A study of Drosophila melanogaster with 2 samples.

Results

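*EcR*, *usp*, *br*, *Eip74EF*, *Eip75B*, *Eip78C*, *Hr4*, *ftz-f1* and *Hr39* encode the ecdysone receptor of *Drosophila* and genes that respond to it. They were taken by gene symbol, and all 9 were found among the 13942 genes of both count matrices. The study sequenced single cells of whole ovaries from *w1118(x);;* females at 1 week and at 6 weeks after eclosion, kept with males, with no enrichment for the anterior of the ovary. The samples used here held 1 library per age, so age and library cannot be told apart and no value below has a replicate check or a p-value. The paper describes quality plots split by age and replicate, and how its replicates relate to these libraries is not stated. All intervals are 95% intervals that cover counting error only.

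Ecdysone is a steroid hormone that follicle cells of the ovary make during egg development. It binds EcR, a nuclear receptor that acts on DNA as a pair with Usp. The receptor switches on early genes such as *br*, *Eip74EF* and *Eip75B*, which encode transcription factors, and these in turn set later genes such as *ftz-f1*. In the ovary the pathway is known for its parts in germline cyst formation, in the passage of egg chambers through vitellogenesis, in eggshell formation and in ovulation.

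The members lie on 4 chromosome arms and differ widely in length (Ensembl annotation of BDGP6.54, the whole gene from first to last annotated base). *EcR* spans 2R:6087873-6169087, *usp* X:2038798-2042311, *br* X:1575132-1664869, *Eip74EF* 3L:17558672-17619325 and *Eip75B* 3L:17950953-18064696. *Eip78C* spans 3L:21226609-21266503, *Hr4* X:1941940-2007956, *ftz-f1* 3L:18750607-18801309 and *Hr39* 2L:21237250-21259675. *Eip75B* was the longest at 113.7 kb and *usp* the shortest at 3.51 kb.

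The libraries held 33317 barcodes at 1 week and 20224 at 6 weeks, of which 9131 and 9878 cells were kept, with median depths of 10639 and 12585.5 UMIs (unique molecular identifiers, each a counted RNA molecule). The median mitochondrial share over all barcodes was 42.9% at 1 week and 15.7% at 6 weeks. In all, 178 barcodes occurred in both libraries, 26 of them among the kept cells. The 1-week cells fell into 30 clusters, formed without the 9 members, and each 6-week cell took the cluster of its nearest 1-week cells. Clusters were called "-like" from marker genes and otherwise bear their leading genes. A cluster called mid-marker had at least 3 of the 4 mid-stage follicle genes *mid*, *Hesr*, *Nep1* and *mirr* in at least 25% of its cells. This rule asked for detection only, did not allow for depth, and no mid-marker cluster met the marker rule for a name. At least 2-fold higher were *mid* in (CG43156), *Hesr* in (Obp44a), *Nep1* in (Ekar), and *mid* and *Hesr* in (Iris). A cluster led by *sm*, not called mid-marker, also had 2 of the 4 raised. Levels are CPM (UMIs of the gene per 1000000 UMIs of the same cells), and they are compared between cells for 1 gene and never between genes.

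The plot of all 9 genes over the 30 clusters shows different distributions for the different genes. After a cluster led by *sm*, *br* was highest in 2 mid-marker clusters, (Ekar) and (Obp44a), in both libraries. Of these 2, (Ekar) had the higher median mitochondrial share, given with *br* further on. *ftz-f1* was high in precursor and escort clusters and low in the vitelline-like cells, a cluster named from genes of the vitelline membrane (inner eggshell). The vitelline-like cells held 36.2% of the *Hr4* UMIs at 1 week and 10.8% at 6 weeks. The cluster led by *sm* stood above all others for 7 of the 9 genes in both libraries, and it also stood apart in quality measures, given with it further on.

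**Figure D1:**
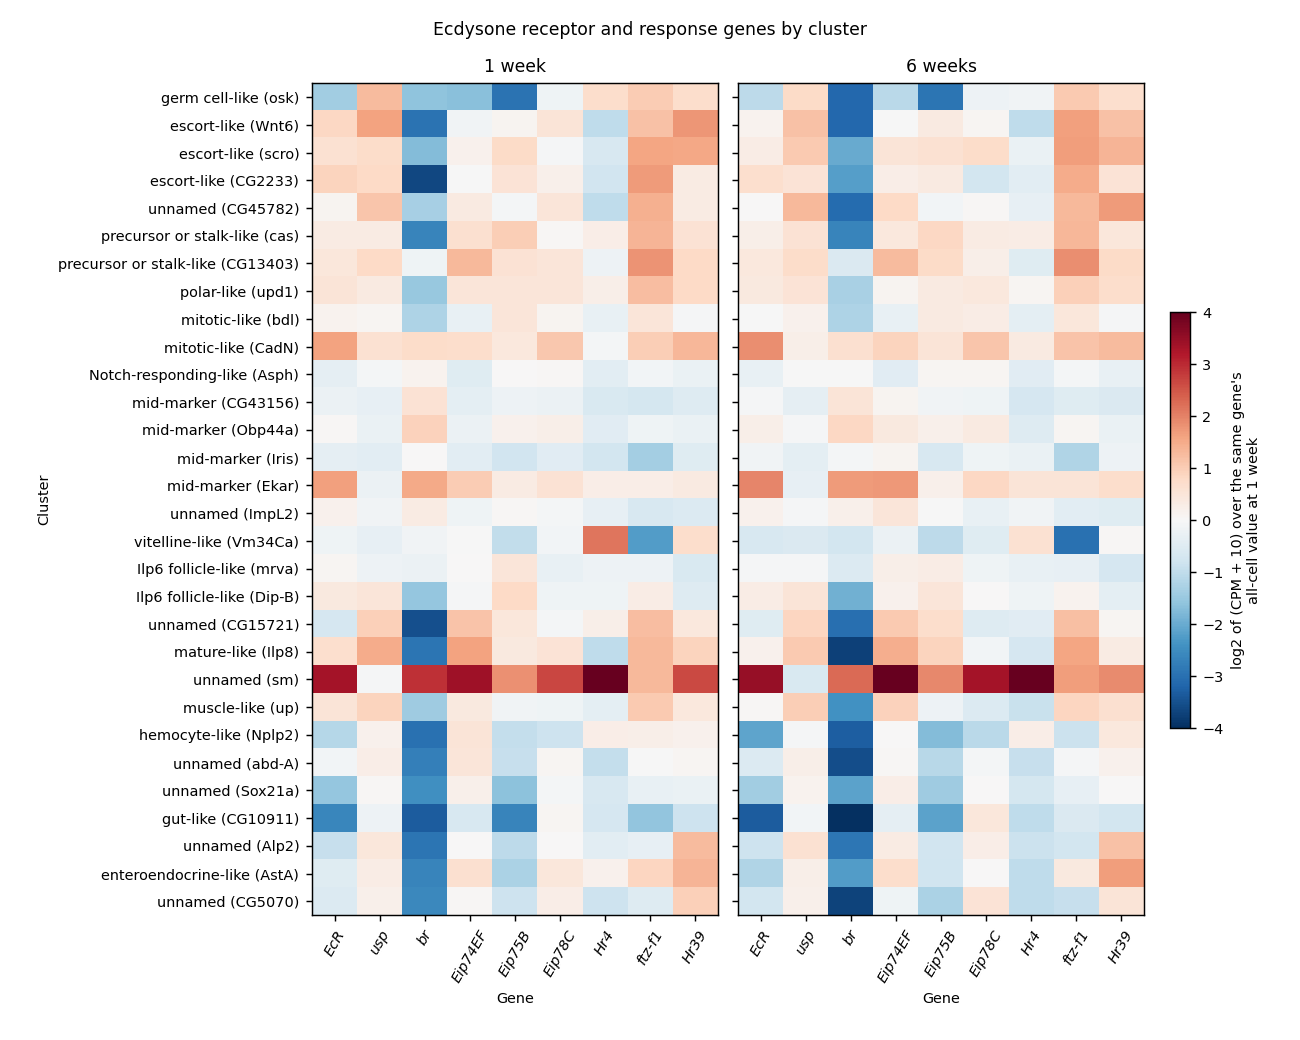
Level of each gene (columns) in each of the 30 clusters (rows) at 1 week (left) and 6 weeks (right), as the log2 of CPM + 10 over the same value in all 1-week cells. The *sm* row is red for every gene but *usp*, and the 2 ages look alike in most rows.

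UMIs of *EcR*, the gene of the receptor, were found in every cluster in both libraries, and free RNA was not removed. *EcR* had 185.7 CPM over all cells at 1 week (interval 183.3 to 188.2) and 198.1 CPM at 6 weeks (195.8 to 200.4). Its order over clusters was similar in the 2 libraries, with a Spearman correlation of 0.93 over the 30 clusters, given as a description. After the *sm* cluster it was highest in the mid-marker (Ekar) cluster, at 606.5 CPM (577.6 to 636.4), and in the mitotic-like (CadN) cluster, at 588.5 CPM at 1 week. The intervals of these last 2 overlapped. Both clusters had median mitochondrial shares of 14.7% and 15.1% at 1 week, against 4.38% to 5.48% in the other mid-marker and Notch-responding-like clusters, and the part of this in their *EcR* level was not tested. The lowest level was in gut-like cells, at 21.9 CPM from 34 UMIs at 1 week and 9.40 CPM from 4 UMIs at 6 weeks. With each cell thinned to 1000 UMIs, 0 of 62 hemocyte-like cells at 1 week and 0 of 18 at 6 weeks held an *EcR* UMI. In the order of *EcR* levels at 1 week, 25 of 29 pairs of neighbouring clusters had overlapping intervals.

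*usp* encodes the partner of EcR on DNA. It had 18.3 CPM over all cells at 1 week (17.5 to 19.05) and 20.03 CPM at 6 weeks (19.3 to 20.8). Its pattern was not that of *EcR*: over the 30 clusters the Pearson correlation of their log2 levels was 0.11 at 1 week and -0.07 at 6 weeks. *usp* was highest in the escort-like (Wnt6) cells at 1 week, at 76.2 CPM, from 15 UMIs (42.7 to 125.8), and in the cluster led by *Wnt4* and CG45782 at 6 weeks, at 59.2 CPM from 10 UMIs. It was 58.2 CPM in germ cell-like cells and 11.1 CPM in the mid-marker (Iris) cluster at 1 week. All 29 neighbouring pairs in the 1-week order overlapped.

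*br* encodes the Broad zinc-finger proteins, early targets of the receptor that also pattern the follicle cells forming the dorsal appendages. It was 28.2 CPM in the precursor or stalk-like (cas) cells at 1 week (21.6 to 36.2) and 199.1 CPM in the precursor or stalk-like (CG13403) cells (179.96 to 219.8). Of the mitotic-like clusters, (bdl) had 91.4 CPM (85.7 to 97.5) and (CadN) 380.8 CPM (338.1 to 427.5). Clusters of 1 marker class thus differed in *br*, and no order along the lineage is read from these levels.

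In the Notch-responding-like (Asph) cells *br* was 252.4 CPM at 1 week (243.9 to 261.2). This cluster was named from *Asph*, *Obp99a* and *E(spl)m7-HLH* among its leading genes, but *aurB* and *stg* also led it, and 7 of 9 mitotic markers were raised there beside 3 of 5 Notch ones, so it is not taken as a step after the mitotic cells. In the mid-marker clusters *br* was 344.1 CPM in (CG43156), 435.8 CPM in (Obp44a) (423.98 to 448.0), 228.6 CPM in (Iris) (219.7 to 237.8) and 664.7 CPM in (Ekar). The median mitochondrial share at 1 week was 14.7% in (Ekar). It was 4.81% in (CG43156), 4.46% in (Obp44a) and 4.38% in (Iris), and its part in the *br* levels was not tested. The level of *br* was 206.3 CPM in vitelline-like cells and 21.01 CPM in the mature-like (Ilp8) cells at 1 week, the latter from 4 UMIs.

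At 6 weeks *br* was 27.6 CPM in the precursor or stalk-like (cas) cells, 90.8 CPM in mitotic-like (bdl), 355.1 CPM in mitotic-like (CadN), 412.7 CPM in mid-marker (Obp44a) and 767.7 CPM in mid-marker (Ekar). After each cell had been thinned to 1000 UMIs, 36.3% of mid-marker (Obp44a) cells held a *br* UMI at 1 week (exact binomial interval 32.6 to 40.1), and 95.3% did before thinning. In gut-like cells, taken here as a type without *br*, 0 of 85 thinned cells did, which allows a share of up to 3.53% of cells with a UMI at that depth (exact binomial upper bound 4.25%), and 9.41% did before thinning. The median depths of these clusters were 14954 and 12987 UMIs. *br* was among the 10 leading genes of the mid-marker (Obp44a) cluster, although it had not been used to form it.

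**Figure D2:**
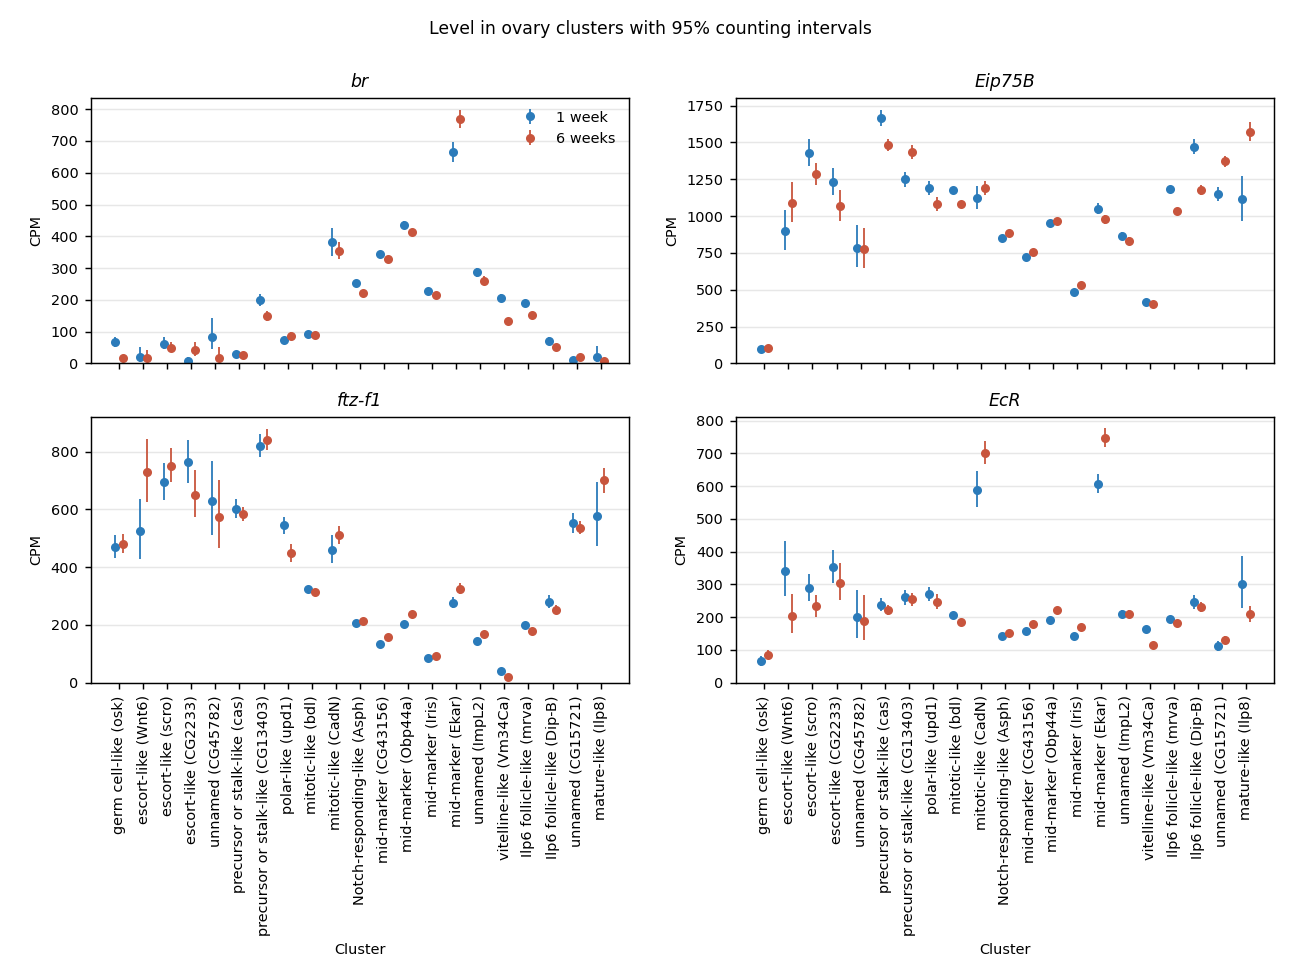
Level in CPM (vertical axes, from 0) of *br*, *Eip75B*, *ftz-f1* and *EcR* in the clusters from germ cell-like to mature-like (horizontal axis). Points are the 1-week (blue) and 6-week (red) libraries, and bars are 95% counting intervals. *br* is highest in mid-marker (Ekar) at both ages, and *ftz-f1* is higher in precursor or stalk-like (CG13403) than in any mid-marker cluster.

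*Eip75B* encodes the E75 nuclear receptor, an early target that binds heme. It was 1668 CPM in the precursor or stalk-like (cas) cells at 1 week (1614 to 1723) and 484.9 CPM in the mid-marker (Iris) cells (471.9 to 498.1), a cluster with the yolk and steroid genes *Yp2* and *spo* among its leading genes. It was 1469.5 CPM in the Ilp6 follicle-like (Dip-B) cells at 1 week, and 1114 and 1573 CPM in the mature-like cells at 1 and 6 weeks. It was lowest in germ cell-like cells, at 100.7 CPM at 1 week and 102.3 CPM at 6 weeks.

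*ftz-f1* encodes a nuclear receptor that acts after the hormone pulse in larvae and pupae, and that is known to promote late steps of follicle cell differentiation. It was 820.3 CPM in the precursor or stalk-like (CG13403) cells at 1 week (780.9 to 861.2) and 842.0 CPM at 6 weeks. The escort-like (CG2233) cells had 764.1 CPM (693.2 to 840.2), an interval that overlapped the first, and the mature-like cells had 577.8 CPM (474.9 to 696.4) and 700.5 CPM (658.0 to 745.1) at 1 and 6 weeks. It was 207.9 CPM in the Notch-responding-like cells, 83.4 CPM in mid-marker (Iris) and 40.6 CPM in the vitelline-like cells at 1 week. In germ cell-like cells *ftz-f1* was 471.3 CPM (432.5 to 512.6), and 72.7% of the 110 cells held a UMI of it before thinning and 33.6% after. The shares in gut-like cells were 38.8% and 5.88%.

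*Hr4*, *Hr39* and *Eip78C* encode further nuclear receptors and were sparsely counted. *Hr4* had 1203 UMIs in all 1-week cells and 922 at 6 weeks. At 1 week, 36.2% of these UMIs lay in the 135 vitelline-like cells, where *Hr4* was 79.5 CPM (72.2 to 87.4). It was 4.91 CPM in the Notch-responding-like cells and 3.24 CPM in mid-marker (CG43156). At 6 weeks it was 20.7 CPM in vitelline-like cells and 19.1 CPM in mid-marker (Ekar), with overlapping intervals. *Hr39* was highest, after the *sm* cluster, in the escort-like (Wnt6) cells at 86.4 CPM (50.3 to 138.4) and the escort-like (scro) cells at 73.1 CPM (54.0 to 96.6), which overlapped. *Eip78C* was 34.4 CPM in the mitotic-like (CadN) cells and 11.1 CPM over all cells at 1 week.

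The cluster led by *sm*, CG10936 and *RhoGEF64C* had the highest levels of most members. It held 108 cells at 1 week and 49 at 6 weeks. There *EcR* was 1957 CPM at 1 week (1800 to 2124) and 2188 CPM at 6 weeks (1929 to 2473), and *Hr4* was 445.5 CPM and 383.2 CPM. Relative to all other 1-week cells, and with 10 CPM added to both, *EcR* was 10.3-fold, *Eip74EF* 10.8-fold, *br* 7.63-fold and *Hr4* 23.9-fold higher, whereas *usp* was 0.960-fold. The 26 of 108 cells with any *Hr4* UMI at 1 week included 1 cell with 21.5% of them.

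These cells differed in quality measures as well. Their median depth was 2201.5 UMIs at 1 week and 2061 at 6 weeks, and their median mitochondrial share was 13.7% and 6.38%. Genes spanning at least 50 kb gave 19.2% of their UMIs at 1 week and 22.999% at 6 weeks, against 1.87% to 12.7% in the other clusters at 1 week. Of 229 genes that long, other than the members and with at least 200 UMIs, 81.7% were at least 2-fold higher in this cluster than in the other 1-week cells, against 7.31% of 6291 genes under 10 kb. The elevation was thus shared by many long genes that are no members, and the part of transcript length or RNA state in the members' levels was not tested.

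The members themselves moved together to different degrees over the 30 clusters, the *sm* cluster included. The Pearson correlation of log2(CPM + 10) was highest for *EcR* with *Eip75B*, at 0.82 at 1 week and 0.79 at 6 weeks, and 0.73 and 0.65 for *usp* with *ftz-f1*. It was -0.50 and -0.60 for *usp* with *br*, the lowest of the 36 pairs, and -0.16 and -0.04 for *br* with *ftz-f1*.

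Over all 30 clusters the levels of most members moved with the share of UMIs from long genes. At 1 week the Pearson correlation of log2(CPM + 10) with that share, the members left out of it, was 0.74 for *EcR*, 0.76 for *ftz-f1*, 0.74 for *Hr39*, 0.71 for *Eip78C* and 0.68 for *Eip74EF*. It was 0.60 for *Eip75B*, 0.50 for *usp*, the shortest member, 0.33 for *Hr4* and 0.09 for *br*. At 6 weeks it was 0.59 for *Hr4*, 0.29 for *usp* and 0.17 for *br*. With the median mitochondrial share at 1 week, the correlation ran from 0.01 for *br* to 0.65 for *ftz-f1*, and was 0.62 for *usp*. The clusters share a library, and these values are descriptions.

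**Figure D3:**
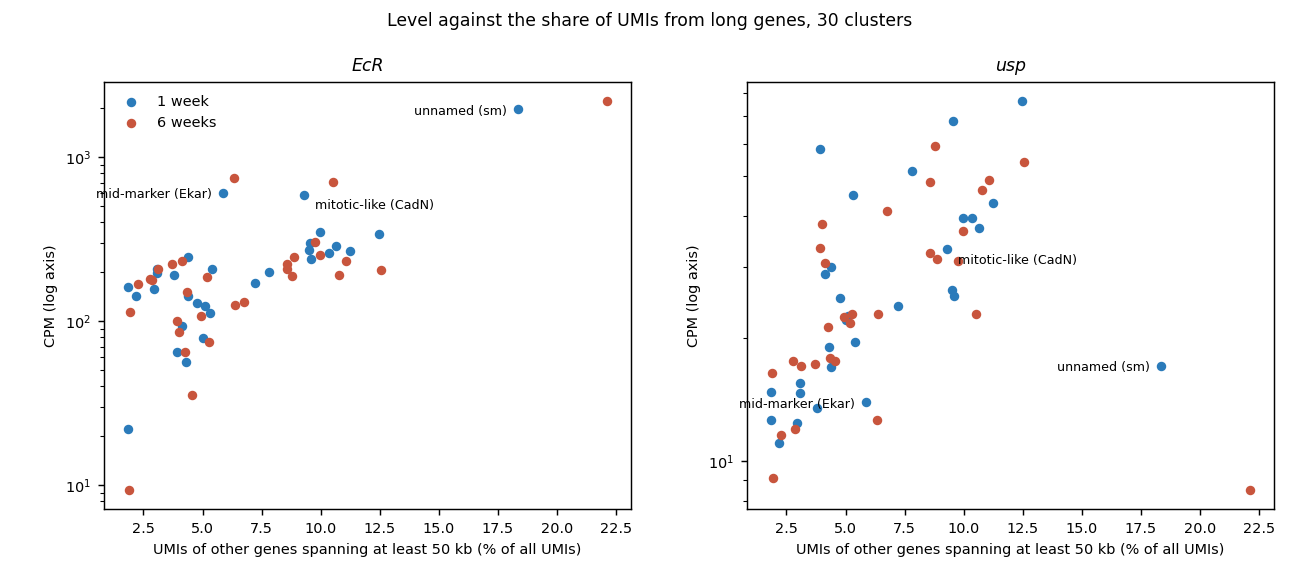
CPM on a log axis of *EcR* (left) and *usp* (right) in the 30 clusters, against the percentage of UMIs from genes other than the members spanning at least 50 kb. Blue is 1 week and red is 6 weeks. The *sm* cluster lies at the far right for both genes, highest for *EcR* and low for *usp*.

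The comparison of the ages asks how the hormone response of the ovary differs between young and old females. A gene was called higher or lower at 6 weeks when its log2 ratio of 6-week to 1-week CPM was at least 0.5 in size, its interval left out 0, and it had at least 30 UMIs over both libraries. Over all cells, 0 of the 9 members were called higher, with 5.21% of 10056 genes called higher. *Hr4* was called lower, with 10.3% of genes called lower. The call was lost, at -0.47, with each cell thinned to 1000 UMIs. *Hr4* was 10.1 CPM at 1 week (9.57 to 10.7) and 6.24 CPM at 6 weeks (5.84 to 6.66), a log2 ratio of -0.70 (-0.82 to -0.57). The next largest was *Eip74EF*, with 63.1 CPM at 1 week, 77.4 CPM at 6 weeks and a log2 ratio of 0.29 (0.25 to 0.34). The other 7 lay between -0.10 for *br* and 0.15 for *ftz-f1*.

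Within the clusters, 227 values of a member in a cluster reached 30 UMIs. Of these, 13 were called higher at 6 weeks and 19 lower, with 6.29% and 6.28% of all gene-by-cluster values called higher and lower. *Eip74EF* had 8 of the 13 higher values and no lower one. The 6 lower values in vitelline-like cells were the most in any 1 cluster.

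*Eip74EF* encodes the E74 ETS-domain transcription factors, direct early targets of the receptor. It was called higher in all 4 mid-marker clusters. In mid-marker (CG43156) it was 46.2 CPM at 1 week and 68.1 CPM at 6 weeks, a log2 ratio of 0.56 (0.44 to 0.68), with 3.54% of genes called higher there. In mid-marker (Obp44a) it was 52.0 and 84.998 CPM, a log2 ratio of 0.71 (0.57 to 0.85), with 4.32% of genes called higher. In mid-marker (Iris) it was 44.3 and 68.8 CPM, 0.63 (0.46 to 0.81), with 5.74% called. In mid-marker (Ekar) it was 137.4 and 232.2 CPM, 0.76 (0.58 to 0.94), with 2.89% called. Thinning each cell to 1000 UMIs ended the call in 3 of these clusters, at 0.11 in (CG43156), at 0.52 (-0.14 to 1.19) in (Obp44a) and at 1.01 (-0.0008 to 2.03) in (Iris). Clustering both libraries together ended it in (CG43156), at 0.45, and in (Ekar), at 0.39.

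*Eip74EF* was also called higher in the cluster led by CG33939 and *ImpL2*, where it went from 55.6 to 91.9 CPM, a log2 ratio of 0.73 (0.52 to 0.94), with 4.34% of genes called higher. In the *sm* cluster its log2 ratio was 0.63 (0.32 to 0.94), with 16.3% of genes called. In muscle-like cells it was 0.56 (0.22 to 0.91), with 7.17% called. In germ cell-like cells it was 0.93 (0.05 to 1.88) from 59 UMIs, with 8.8% called. These last 3 calls depended on the processing. The *sm* one was at 0.38 with both libraries clustered together, the muscle-like one at 0.29 with no mitochondrial limit, and the germ cell-like one at -0.10 as a mean over cells, with an interval of -0.006 to 1.98 without the highest cell of each library.

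*Eip74EF* was not called in the precursor, polar, mitotic or Notch-responding-like clusters. It was 48.9 and 49.9 CPM in the mitotic-like (bdl) cells, a log2 ratio of 0.03 (-0.13 to 0.20), and 42.1 and 43.2 CPM in the Notch-responding-like cells, 0.04 (-0.12 to 0.19). In the precursor or stalk-like (CG13403) cells it was 169.8 and 166.8 CPM, -0.03 (-0.24 to 0.19). The intervals of these 3 clusters lie below those of the 4 mid-marker clusters. In mitotic-like (CadN) it was 109.8 and 124.2 CPM, 0.18 (-0.18 to 0.55), an interval that overlapped those of mid-marker (CG43156) and (Iris). It was -0.25 (-0.50 to 0.003) in precursor or stalk-like (cas) and -0.42 (-0.75 to -0.10) in polar-like cells. Nor was it called in Ilp6 follicle-like (mrva), at 0.26 (0.12 to 0.39), or in Ilp6 follicle-like (Dip-B), at 0.24 (-0.06 to 0.54). In vitelline-like cells it was -0.24 (-0.48 to -0.004), also not called. With 1 library per age the difference between clusters was not tested. The median depth was 5908.5 and 5911 UMIs in mid-marker (Ekar) and 4161 and 3897 UMIs in mitotic-like (CadN) at 1 and 6 weeks, and it was 11587 and 15720 UMIs in the Notch-responding-like cells and 14954 and 19799 UMIs in mid-marker (Obp44a).

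**Figure D4:**
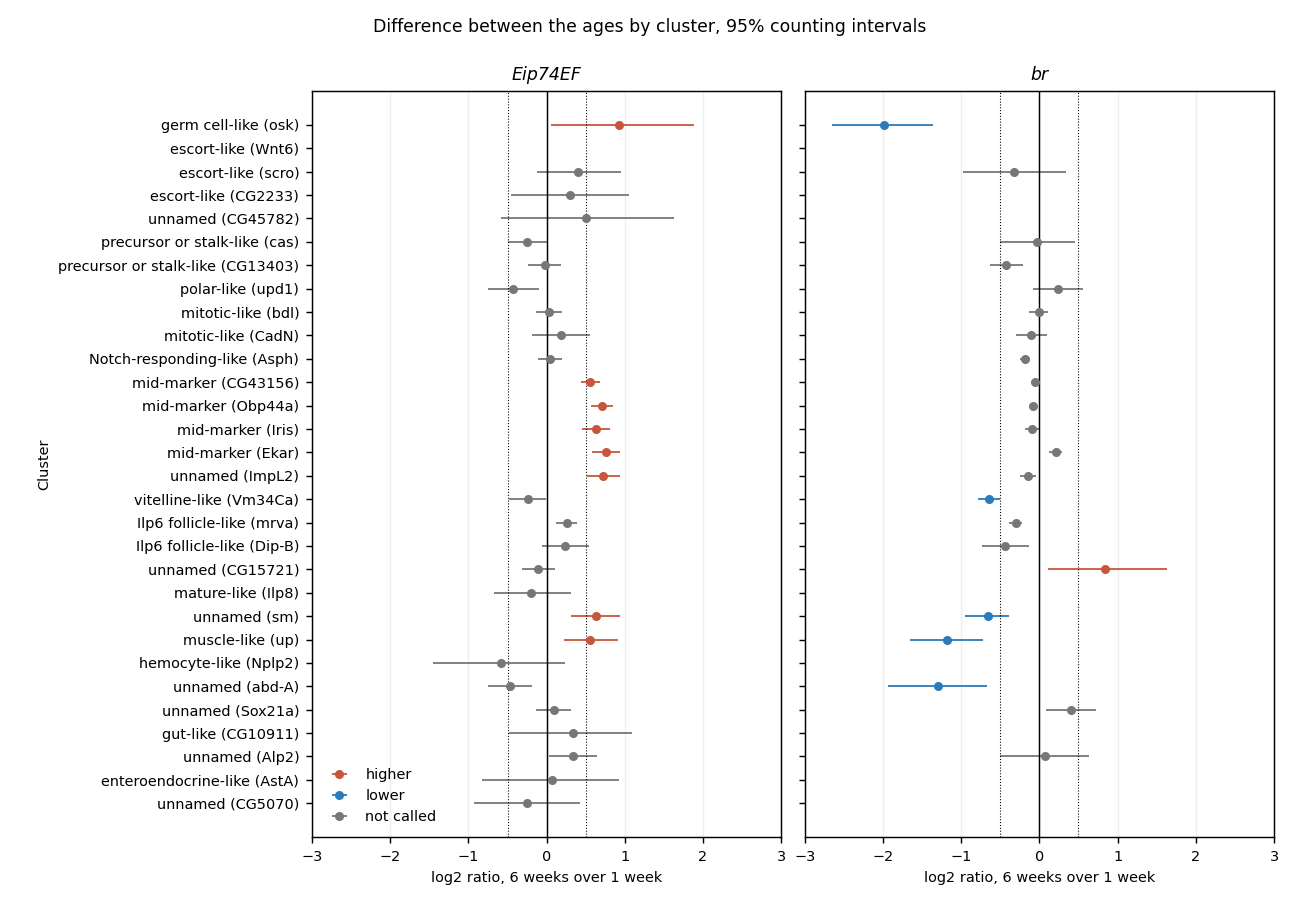
Log2 ratio of 6-week over 1-week CPM (horizontal axes) of *Eip74EF* (left) and *br* (right) by cluster, with 95% counting intervals. Red and blue mark values called higher and lower, dotted lines the fold needed, and clusters with under 30 UMIs have no point. The 4 mid-marker clusters lie at 0.56 to 0.76 for *Eip74EF* and at -0.09 to 0.21 for *br*.

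*EcR*, *ftz-f1*, *Eip75B* and *br* were not called in the mid-marker clusters. In the 4 mid-marker clusters the log2 ratio of *EcR* lay between 0.18 and 0.30, that of *ftz-f1* between 0.16 and 0.24, that of *Eip75B* between -0.10 and 0.13 and that of *br* between -0.09 and 0.21. In mid-marker (Iris), *Eip78C* had 58 and 72 UMIs and a log2 ratio of 0.70 (0.18 to 1.22), and *Hr4* had 23 and 55 UMIs and 1.64 (0.92 to 2.41), both called higher. With both libraries clustered together neither was called, at 0.37 and 0.17.

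In vitelline-like cells, 6 of the 9 members were called lower at 6 weeks, with 7.95% of genes called lower there. *Hr4* was 79.5 CPM at 1 week and 20.7 CPM at 6 weeks (16.8 to 25.1), a log2 ratio of -1.94 (-2.27 to -1.63). *EcR* was 162.4 and 114.3 CPM, a log2 ratio of -0.51 (-0.66 to -0.35), and its call was lost under 5 of 13 alternatives. Among these it was -0.37 with a mitochondrial limit of 10%, and -0.44 both without cells marked as doublets and with both libraries clustered together. Of these cells, 20 of 135 at 1 week and 3 of 77 at 6 weeks were marked as doublets. *br* was 206.3 and 132.1 CPM, -0.64 (-0.79 to -0.50). *Hr39* was 35.7 and 19.2 CPM, -0.89 (-1.26 to -0.53), and *Eip78C* was -0.94 (-1.70 to -0.21) from 76 UMIs. The *Eip78C* call was lost, at -0.69, without cells marked as doublets, and its ratio turned to 0.81 from 2 UMIs when each cell was thinned to 1000 UMIs. The sixth, *ftz-f1*, at -1.003, rested on 1 cell of the 1-week library that held 122 of its 222 UMIs, and it was -0.02 (-0.45 to 0.41) without the highest cell of each library.

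The makeup of the vitelline-like cells also differed between the libraries. There were 135 such cells at 1 week and 77 at 6 weeks, and yolk and eggshell genes gave 16.95% and 9.10% of their UMIs. At 1 week 26 cells had at least 100 CPM of *Vm32E*, a vitelline membrane gene, and at 6 weeks 3 had. This split was set after the values had been seen. In the cells under it, *Hr4* was 70.3 CPM at 1 week (62.6 to 78.6) and 20.1 CPM at 6 weeks (16.3 to 24.6), and *br* was 215.9 and 128.6 CPM. In the 26 cells above it, *Hr4* was 113.7 CPM (95.2 to 134.7). Within the lower set *dec-1*, another eggshell gene, was still 209.8 CPM at 1 week and 8.47 CPM at 6 weeks, and the part of a different mix of stages in these values was not tested.

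**Figure D5:**
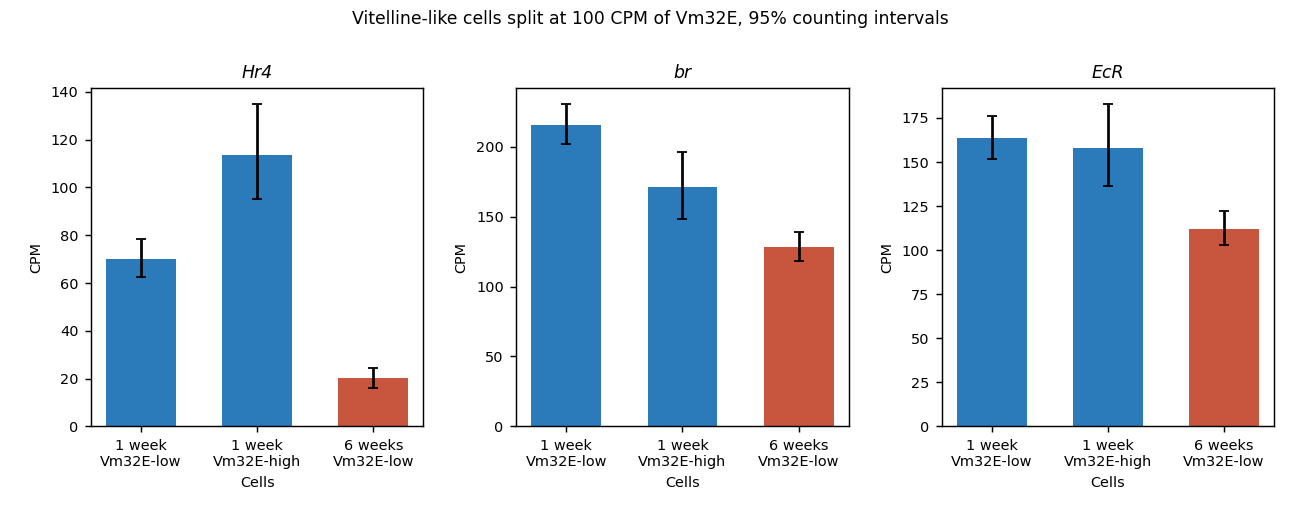
CPM (vertical axes, from 0) of *Hr4*, *br* and *EcR* in vitelline-like cells below or above 100 CPM of *Vm32E*, with 95% counting intervals. Blue is 1 week (109 and 26 cells) and red is 6 weeks (74 cells), and the 3 cells above the limit at 6 weeks are not drawn. *Hr4* is lower at 6 weeks than in either 1-week set.

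The vitelline-like cells also carried most of the all-cell difference of *Hr4*. They held 435 of its 1203 UMIs at 1 week and 100 of 922 at 6 weeks. Without this cluster *Hr4* was 6.78 and 5.75 CPM, a log2 ratio of -0.24 (-0.38 to -0.09), which is not called.

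*br* was also called lower in the *sm*, muscle-like, *abd-A* and germ cell-like clusters. In the *sm* cluster it was 1765 CPM at 1 week and 1116 CPM at 6 weeks, a log2 ratio of -0.66 (-0.95 to -0.38), with 11.9% of genes called lower there. In muscle-like cells it was 78.6 and 34.6 CPM, -1.19 (-1.66 to -0.72), with 3.92% called. In the cluster led by *vir-1* and CG8369, with *abd-A* also among its leading genes, it was 25.5 and 10.4 CPM, -1.30 (-1.94 to -0.66), with 9.18% called. With both libraries clustered together the *sm* and muscle-like ratios were -0.24 and -0.42, and without cells marked as doublets the *abd-A* ratio was -0.18, none of them called. In the CG15721 cluster *br* was called higher, from 10.6 to 18.9 CPM, with 20.2% of genes called higher, and that call was lost under 8 of 13 alternatives.

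*EcR* was also called lower in the escort-like (Wnt6), mature-like and hemocyte-like cells. In the escort-like (Wnt6) cells it was 340.6 CPM (263.9 to 432.5) and 204.2 CPM, a log2 ratio of -0.74 (-1.30 to -0.18), with 3.01% of genes called lower, and -0.15 (-1.42 to 1.39) from 41 UMIs with a mitochondrial limit of 10%. In the mature-like (Ilp8) cells it was 299.4 and 208.4 CPM, -0.52 (-0.94 to -0.09), with 8.83% called. These had 27 cells at 1 week and 123 at 6 weeks, and the ratio was -0.31 (-0.77 to 0.17) without the highest cell of each library and turned to 0.81 with both libraries clustered together. In the same cells *Eip75B* was 1114 CPM (969 to 1274) and 1573 CPM (1509 to 1639), just inside the fold limit and not called.

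In germ cell-like cells *usp*, *br* and *Hr4* were called lower, with 15.3% of genes called lower there. *br* had 77 UMIs in 110 cells at 1 week and 30 in 84 cells at 6 weeks, a log2 ratio of -1.99, -1.01 without the highest cell of each library, and -0.76 (-1.61 to 0.08), not called, without cells marked as doublets. In hemocyte-like cells, of which 62 and 18 were kept, *EcR*, *Eip75B* and *ftz-f1* were called lower, with 11.5% called, and the *EcR* call was lost, at -0.60 (-1.90 to 0.57), without cells marked as doublets. In the 85 and 23 gut-like cells *Eip75B* and *ftz-f1* were called higher, with 9.1% called. *Eip75B* was there at 0.51, and at 0.14 (-0.35 to 0.61) without the highest cell of each library.

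In the cluster led by CG15721, *Eip78C* and *Hr4* were called lower, with 3.64% of genes called. They rested on 39 and 45 UMIs over both libraries, and neither call was kept without the highest cell of each library. At 1 week yolk and eggshell genes gave 15.2% of the UMIs of this cluster and at 6 weeks 0.0268%. Only 12 kept cells at 1 week and 0 at 6 weeks had over 5% of their UMIs from chorion (outer eggshell) genes, 5 of the 12 in this cluster.

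The rest of the hormone pathway was read from 5 lists over all cells, beside a median log2 ratio of -0.01 for all genes. Of all genes, 5.21% were called higher and 10.3% lower, and the lists are too short to be set apart from these shares. Of 9 genes of ecdysteroid synthesis, 1 was called higher and 1 lower, with a median of -0.27. *spo*, which encodes a cytochrome P450 of an early step of the synthesis, was 29.9 and 19.96 CPM, a log2 ratio of -0.58 (-0.65 to -0.51). At 1 week *spo* was highest in the vitelline-like cells, at 288.9 CPM, and it was 179.7 CPM there at 6 weeks. That cluster had 135 cells at 1 week and 77 at 6 weeks, and its part in the *spo* ratio was not tested. *dib*, which encodes a later hydroxylase, was 4.97 and 8.47 CPM, 0.77 (0.63 to 0.91). *nvd* and *Npc1a*, the list's most counted genes, were at -0.10 and 0.00.

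None of the 3 genes of transport and breakdown was called. *Oatp74D*, which encodes the ecdysone importer, was 71.3 and 80.5 CPM, and *Cyp18a1*, which inactivates ecdysteroids, was 290.0 and 338.8 CPM. None of the 9 coregulators was called, and the chaperones *Hsp83* and *Hsc70-4* in that list were at 0.08 and 0.23. Of 11 other nuclear receptors tested, 2 were called lower, *svp* at -0.75 and *knrl* at -0.60, while *Hr38* and *Hnf4* were at -0.09 and 0.13. At 1 week *svp* and *knrl* were highest in the cluster led by CG5070, at 48.1 and 214.9 CPM. Over all cells they were at 1.39 and 1.47 CPM. That cluster had 58 cells at 1 week and 21 at 6 weeks, and its part in the 2 ratios was not tested.

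Of 19 other ecdysone-response genes tested, 2 were called higher and 2 lower, with a median of 0.05. *ImpL2*, a secreted binder of insulin-like peptides, was 331.8 and 529.2 CPM, a log2 ratio of 0.67 (0.66 to 0.69). *rpr*, a cell death activator, was 60.4 and 86.5 CPM, 0.52 (0.48 to 0.56). *Blimp-1*, a transcriptional repressor, was at -0.50 and *Ldh*, lactate dehydrogenase, at -0.75, both lower, and *Eip93F* was at 0.20.

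The genes most like each member over the 30 clusters at 1 week were found by the Pearson correlation of log2(CPM + 10), with the value at 6 weeks beside it. For *EcR* they were *Sxl* (0.92 and 0.88), *lola* (0.89 and 0.93) and *spri* (0.89 and 0.89). For *usp* they were *DUBAI* (0.94 and 0.73), *Dlg5* (0.94 and 0.84) and CG14411 (0.90 and 0.81). For *br* they were CG15822, *ndl* and *a*, at 0.84 to 0.85 at 1 week and 0.84 to 0.86 at 6 weeks.

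The 3 genes most like *Eip74EF* were CG31038, *Hers* and CG32369, with 0.84 to 0.85 at 1 week. Those most like *Eip75B* were CG32486 (0.91), *mamo* (0.88) and CG6959 (0.86). Those most like *ftz-f1* were *bip2* (0.94), *BtbVII* (0.93) and CG11873 (0.92). For *Hr4* the first was *shd* (0.84 and 0.60), which encodes the enzyme that makes the active hormone, followed by *tyn* and *dpr2*. At 1 week *Hr4* and *shd* were both highest in the *sm* cluster, at 445.5 and 85.7 CPM. Over all cells they were at 10.1 and 7.56 CPM, and the part of the *sm* cluster in their correlation was not tested. For *Eip78C* they were *Spt20*, CG8777 and CG7069, and for *Hr39* *Sec16*, *jvl* and *GramD1B*.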

How the data were processed

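Ovaries were dissociated and sequenced with 10x Genomics 3′ kits. The labels give v4 for both libraries, while the study's methods name an earlier version as well and do not say which library used it, so kit and age cannot be told apart. Per the labels, the authors aligned reads with Cell Ranger 9.0.0 to BDGP6 and deposited a matrix of UMI counts, which are not normalized. Their numeric cell filters are not given in the sources used here. The cell filter asked for 500 or more genes, 1000 or more UMIs and no more than 20% of UMIs from mitochondrial genes. The 1-week cells were clustered on 2000 variable genes without the members (30 principal components, 20 neighbours, Leiden resolution 1, leidenalg 0.10.2), and each 6-week cell took the most frequent cluster among its 30 nearest 1-week cells.

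A cluster was named when at least 3 markers of a list were at least 2-fold higher there and in at least 10% of cells, with at least 1 among its 10 leading genes (those in at least 25% of cells). In clusters whose median depth was under 33.3% of the library's, at least 2 were required. A cluster was left unnamed where only 1 marker was among its leading genes and a second class outside the follicle lineage also had 3. Alternatives removed cells marked as doublets, at an assumed 0.4% per 1000 barcodes. Without removal doublets stay in.

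UMIs were summed per library and cluster, with exact Poisson intervals for CPM and exact binomial intervals for ratios and shares (scipy 1.17.1). With 1 library per age no test was run. The members, lists and naming limits were chosen with earlier results of these data known. Of 13942 genes, 13879 matched the annotation. The named pathway genes are those called with at least 200 UMIs, or the pair with most UMIs in each list. The ratio code was checked on simulated counts. Free RNA from other cells was not removed.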

Additional observations from a re-analysis of the deposited data

Results flagged for a closer look

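5 genes were called higher at 6 weeks in some clusters and lower in others, and the differences between clusters were not tested. Of all gene-by-cluster values, 6.29% were called higher and 6.28% lower. The share of all genes called in both directions is not given, so the 5 are not read as many or few. *br* was at 0.84 on the log2 scale in the cluster led by CG15721 and at -1.99 in germ cell-like cells. *Eip75B* was at 0.51 in gut-like cells and at -0.80 in hemocyte-like cells. *Eip78C* was at 0.70 in mid-marker (Iris) and at -1.03 in the CG15721 cluster. *Hr4* was at 1.64 in mid-marker (Iris) and at -1.94 in vitelline-like cells. *ftz-f1* was at 1.10 in gut-like cells and at -1.17 in hemocyte-like cells. The *br* call in the CG15721 cluster was lost under 8 of 13 alternatives. Without the highest cell of each library, *Eip75B* in gut-like cells was at 0.14 and *Eip78C* in the CG15721 cluster at 0.72. With both libraries clustered together, *Hr4* in mid-marker (Iris) was at 0.17. The *ftz-f1* call in gut-like cells was lost only when each cell was thinned, from 11 UMIs.

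Barcodes that did not pass the cell filter also held UMIs of *EcR*. On the CPM scale with mitochondrial genes left out, *EcR* was at 947.3 in the 24186 barcodes left out at 1 week and at 1005 in the 10346 left out at 6 weeks, against 197.2 and 207.6 in the kept cells. *usp* was at 32.4 and 28.2 in the barcodes left out and at 19.4 and 20.99 in the kept cells. Every other member was also higher in the barcodes left out at both ages, such as *br* at 741.1 against 240.3 at 1 week.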

How the results depend on the processing

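Of 409 alternative values for the 32 called member-by-cluster ratios, 356 stayed within the main counting interval, 42 moved beyond it and 11 turned direction. *Hr4* over all cells stayed negative, from -0.83 to -0.47. With each cell thinned to 1000 UMIs, 0 members were called lower over all cells, and 4 and 5 member-by-cluster values were called higher and lower. A fold of log2 1 gave 0, 2 and 10. The mean over cells, which has no interval and was called on size alone, gave 0, 21 and 29. Thinning left some values under 30 UMIs, such as *Hr4* in vitelline-like cells with 12. The number of values tested and the share of all genes called are not given for these settings. The counts are therefore not read as many or few. When both libraries were clustered together *EcR* in mature-like cells turned to 0.81, and in the CG15721 cluster *br* turned to -0.36, *Eip78C* to 1.16 and *Hr4* to 1.29. The mean over cells turned *Eip74EF* in germ cell-like cells to -0.10 and *Eip78C* in the CG15721 cluster to 0.0703. *Eip75B* in gut-like cells turned to -1.65 with a mitochondrial limit of 10% and to -1.28 when thinned, and thinning turned *Eip78C* in vitelline-like cells to 0.81. Without doublet-marked cells *ftz-f1* in vitelline-like cells turned to 0.21. Leaving out the highest cell of each library, chosen after seeing the data, turned *Eip78C* in the CG15721 cluster to 0.72, and 11 of 13 higher and 15 of 19 lower calls were kept. The causes were not tested. *Eip74EF* in the 4 mid-marker clusters stayed above 0 under every alternative run, lowest at 0.11 in mid-marker (CG43156). No paired analysis was possible because there was 1 library per age. Counts of *usp*, *Eip78C*, *Hr4* and *Hr39* limit the order of clusters.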
